A study of Danio rerio with 6 samples.

Results

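The endoplasmic reticulum (ER) stress genes described here are hspa5 (ENSDARG00000103846), hsp90b1 (ENSDARG00000003570), xbp1 (ENSDARG00000035622) and ddit3 (ENSDARG00000059836). Their RNA was measured by RNA-seq in zebrafish pronephros, dissected by the fluorescence of its proximal tubules (PTs), after gentamicin injury. These genes are 4 of the 32520 in the count table, taken by their Ensembl identifiers because aminoglycoside injury stresses the secretory pathway of tubule cells. The rule of choice did not use their response, but earlier results of these data were known when they were chosen. All 4 passed the filter on low counts, as did 17497 genes in all.

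Larvae of the Tg(PT:EGFP) line, whose proximal tubule cells are green, were microinjected with gentamicin at 3 days post-fertilization (dpf). At 5 dpf, or 2 days post injection, they were kept for 24 h either in 1% DMSO alone (gent-AKI+DMSO) or in 1 μM UPHD25 with 1% DMSO (gent-AKI+UPHD25). UPHD25 is a prodrug of the histone deacetylase inhibitor PTBA. The pronephros was dissected by its GFP from pools of 100 larvae, 1 pool per library and 3 libraries per group, and both groups carried the transgene, the injury and the DMSO. No library of uninjured larvae was analysed here, so the values compare treatments after injury and do not give the response to gentamicin itself. The labels do not say whether the pools came from separate clutches or days, so p-values measure the spread between these pools.

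The ER folds secreted and membrane proteins, and unfolded protein there sets off the unfolded protein response through the sensors IRE1, PERK and ATF6. ATF6 and the transcription factor XBP1, whose mRNA is spliced by IRE1, raise chaperones and degradation factors, while PERK slows translation and raises ATF4 and its target CHOP, a factor linked to cell death under lasting stress. Proximal tubule cells reabsorb filtered protein by endocytosis and take up aminoglycosides by the same route, which makes them a main site of aminoglycoside toxicity. In this pathway hspa5 encodes BiP, the ER's Hsp70 chaperone, hsp90b1 encodes its Hsp90 chaperone GRP94, xbp1 encodes XBP1, and ddit3 encodes CHOP.

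Library totals ran from 10781071 to 30750026 counts, with the replicate 1 library the deepest in both groups. UPHD25 replicate 3 stood apart. Its mean correlation with the other libraries over genes was 0.919, against 0.939 to 0.953 for the others, and its normalisation factor was 1.21, against 0.903 to 1.00. Of 11 proximal tubule markers listed, 7 were matched to genes and 4 passed the filter on low counts (cubn, cdh17, pdzk1 and lrp2b). The matched markers slc13a1, slc13a3 and aqp8b had counts too low to pass it. RNA of other tissues was abundant. Summed levels in CPM (read counts scaled to a common library size) were 8801 to 20993 for 5 skeletal muscle genes. For 12 exocrine pancreas genes they were 3334 to 16411 CPM. The libraries thus held RNA of other tissues beside that of the labelled pronephros. In such bulk samples fewer cells of a type and less RNA per cell cannot be told apart. Values below are CPM scaled by edgeR's TMM factors, and log2 fold changes are gent-AKI+UPHD25 relative to gent-AKI+DMSO. Levels are not compared between genes, since gene lengths were not used here.

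None of the 4 ER stress genes differed between gent-AKI+UPHD25 and gent-AKI+DMSO beyond the spread between pools. The log2 fold changes of the 4 genes lay between -0.30 and 0.01, and for each gene the libraries of the groups overlapped. All 4 genes were at their lowest in UPHD25 replicate 3 with TMM, and all but hsp90b1 with library totals. No gene tested passed an adjusted p of 0.05 in edgeR with its quasi-likelihood test, adjusted by the Benjamini-Hochberg method (0 of 17497, or 0%). Of the same genes, 2186 (12.5%) had an unadjusted p under 0.05. None of the 4 genes was among those 2186 or among the genes called by any of the alternative tests run. Overlap between the groups was the common case too, since all 3 UPHD25 libraries lay below all 3 DMSO libraries for 7.46% of genes and above them for 10.4%.

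BiP holds newly made chains in the ER and keeps the stress sensors inactive until unfolded protein draws it away. The level of hspa5 was 7091, 8371 and 5554 CPM in gent-AKI+DMSO replicates 1 to 3 and 7812, 6484 and 3531 CPM in gent-AKI+UPHD25 replicates 1 to 3. UPHD25 replicate 3 was the low library, and the other UPHD25 libraries lay inside the range of the DMSO libraries. The means were 7005 ± 1411 CPM (SD, n = 3) and 5942 ± 2191 CPM (SD, n = 3). The log2 fold change was -0.24 (standard error 0.36, edgeR adjusted p = 0.871), and its 95% interval of -1.07 to 0.59 ran from 0.477 to 1.51 of the control level. A two-sided exact permutation test of the CPM gave p = 0.6, where 3 libraries against 3 cannot go below 0.1. With UPHD25 replicate 3 left out the log2 fold change of hspa5 was 0.03. Between 0.427% and 0.756% of all counts in a library fell on this gene, at 52594 counts or more, and its highest and lowest level differed 2.37-fold. The lowest counts of the other genes were 2635 for hsp90b1, 8948 for xbp1 and 3206 for ddit3. Counting error alone at the lowest count, taking reads as independent molecules, was 0.436% of the level for hspa5, 1.95% for hsp90b1, 1.06% for xbp1 and 1.77% for ddit3, and it leaves out the noise of amplification and library preparation.

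GRP94 folds a narrower set of clients, among them integrins and Toll-like receptors. The level of hsp90b1 was 287, 397 and 236 CPM in the gent-AKI+DMSO libraries and 284, 253 and 212 CPM in the gent-AKI+UPHD25 libraries. The high value was DMSO replicate 2, and the UPHD25 libraries fell at the lower end of the DMSO range without leaving it, apart from UPHD25 replicate 3. With library totals in place of TMM, DMSO replicate 3 was the lowest. The means were 307 ± 82.3 and 249.9 ± 35.9 CPM (SD, n = 3 each), a log2 fold change of -0.30 (standard error 0.24, 95% interval -0.86 to 0.26, edgeR adjusted p = 0.721). The exact permutation test gave p = 0.4. The fold change drew largely on DMSO replicate 2, and without that library it was -0.07.

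XBP1 in its spliced form is the IRE1 branch's transcription factor, and its gene is itself raised by the stress response. In the gent-AKI+DMSO libraries xbp1 stood at 991, 1011 and 801 CPM, and in the gent-AKI+UPHD25 libraries at 1165, 1063 and 601 CPM. The UPHD25 libraries held both the highest and the lowest value, and the group means were nearly equal, at 935 ± 116 and 943 ± 301 CPM (SD, n = 3 each). The log2 fold change was 0.01 (standard error 0.29, edgeR adjusted p = 0.993; exact permutation p = 1), with a 95% interval of -0.65 to 0.68, or 0.637 to 1.598 of the control level. Changes inside that interval cannot be told from none with these pools. Counts per gene do not separate spliced from unspliced xbp1 mRNA, so the activity of IRE1 was not read from these values.

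CHOP is the transcription factor at the end of the PERK branch. The level of ddit3 was 452, 943 and 539 CPM in the gent-AKI+DMSO libraries and 543, 1018 and 215 CPM in the gent-AKI+UPHD25 libraries. In both groups the replicate 2 pool was the high one, and UPHD25 replicate 3 was the low one. The lowest and highest library differed 4.73-fold, against 1.87-fold to 2.37-fold for the other 3 genes. The means were 644 ± 262 and 592 ± 404 CPM (SD, n = 3 each), with a log2 fold change of -0.12 (standard error 0.53, edgeR adjusted p = 0.961; exact permutation p = 1). Its 95% interval of -1.34 to 1.095 spanned 0.395 to 2.14 of the control level, so that changes of 2-fold upward and of 2-fold downward lay within it. The sign depended on single libraries: the log2 fold change was 0.27 without UPHD25 replicate 3, 0.25 without DMSO replicate 2 and -0.77 without UPHD25 replicate 2.

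**Figure D1:**
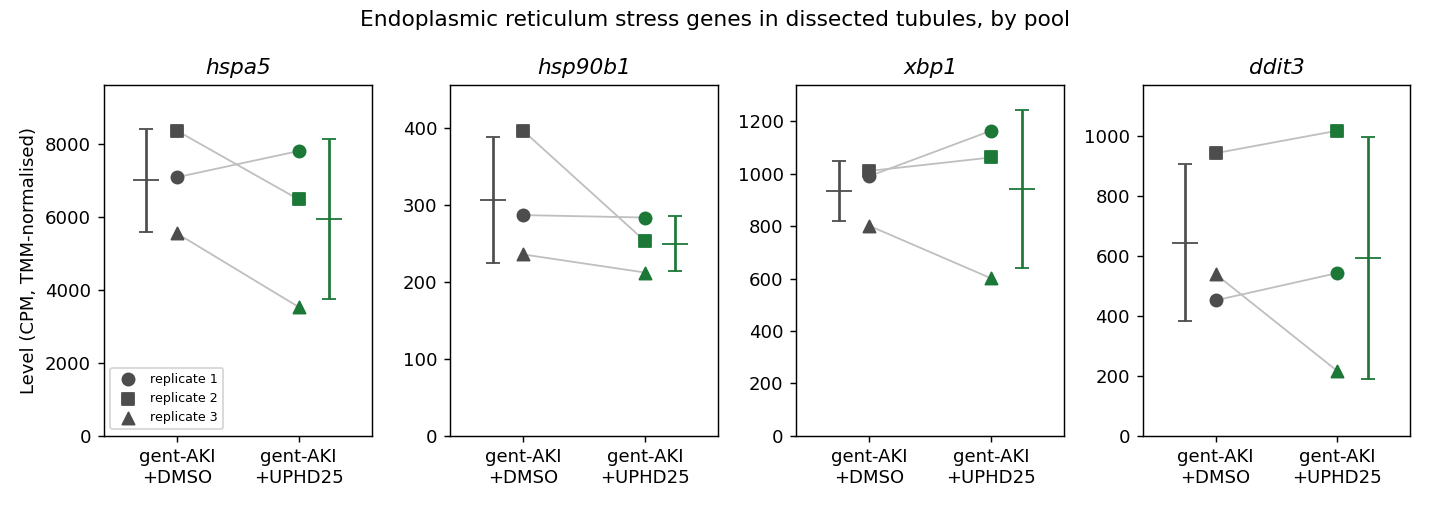
Level of hspa5, hsp90b1, xbp1 and ddit3 in each library (vertical axes, TMM-normalised CPM from 0), by group, with grey lines joining libraries of the same replicate number and bars giving the mean ± SD of 3 libraries. The groups overlap in every panel, and with TMM UPHD25 replicate 3 is the lowest point in each (with library totals, in each but hsp90b1).

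Over all genes, the deviations from group means correlated between libraries that share a replicate number. Libraries of unlike number were not compared in this way, so the correlations do not show that same-numbered pools were more alike than others. The 4 genes were also read pair by pair, though the labels state no pairing. In replicate 1 the UPHD25 library differed from its DMSO partner by 0.14 (hspa5), -0.02 (hsp90b1), 0.23 (xbp1) and 0.27 (ddit3) on the log2 CPM scale. In replicate 2 the differences were -0.37, -0.65, 0.07 and 0.11 in the same order. In replicate 3 they were -0.65, -0.15, -0.42 and -1.32. All 4 genes were thus lower after UPHD25 in pair 3, while xbp1 and ddit3 were higher in pairs 1 and 2. No gene but hsp90b1 moved the same way in all 3 pairs, and there the difference in pair 1 was close to 0. With the pairs as a block in edgeR the log2 fold changes were -0.29 for hspa5, -0.27 for hsp90b1, -0.04 for xbp1 and -0.31 for ddit3, and no call changed.

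The ratio of counts between genes of one library does not depend on the normalisation. Per 100 counts of hspa5 there were 13.98, 12.1 and 14.4 counts of xbp1 in the gent-AKI+DMSO libraries and 14.9, 16.4 and 17.0 in the gent-AKI+UPHD25 libraries. Here the groups did not overlap, in 1 of the 4 ratios formed, but the nearest libraries were close, at 14.4 and 14.9. How often ratios of other genes part the groups was not computed. Single genes parted upward in 10.4% and downward in 7.46% of all genes. The ratio was picked out after its values were seen and was not tested. Per 100 counts of hspa5 there were 6.37, 11.3 and 9.71 counts of ddit3 after DMSO and 6.95, 15.7 and 6.10 after UPHD25, and this ratio of the death-linked factor to the chaperone overlapped between the groups. For hsp90b1 the same ratio was 4.05, 4.74 and 4.25 after DMSO and 3.63, 3.91 and 6.01 after UPHD25, so the balance between the chaperones was unlike the rest in UPHD25 replicate 3. Counts of ddit3 per 100 of xbp1 were 45.6, 93.2 and 67.3 after DMSO and 46.6, 95.8 and 35.8 after UPHD25, nearly alike within pairs 1 and 2.

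The genes that act before and beside these 4 were read from 5 lists covering the sensors, the integrated stress response, chaperones and folding enzymes, ER-associated degradation, and translocation and export. The lists held 73 symbols, of which 68 were matched to 69 genes and 63 genes were tested. No listed gene had an adjusted p under 0.05 in edgeR, and the smallest was 0.242. With an unadjusted p under 0.05 there were 1 higher and 1 lower gene of 63, against the 12.5% of all genes given above. All 3 UPHD25 libraries lay above all 3 DMSO libraries for 1 of the 63 and below them for 2. Over all genes these shares were 10.4% and 7.46%. In log2 fold change 47 of the 63 (74.6%) lay below 0, with a median of -0.14, against 47.3% and a median of 0.03 over all genes. With library totals 38 of the 63 (60.3%) lay below 0, against 33.1% of all genes. The lowest library was UPHD25 replicate 3 for 44 of the 63 genes (69.8%) and for 4019 of all 17497 (23.0%) with TMM, and for 30 (47.6%) and 1818 (10.4%) with library totals. Without that library 32 of the 63 (50.8%) lay below 0 and the median was -0.01. Some members were low in a further pool, such as pdia4 and sel1l, which had their lowest value in UPHD25 replicate 2.

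Of the sensors, ern1 encodes IRE1 and stood at 13.5, 42.5 and 21.5 CPM after DMSO and at 12.5, 35.2 and 38.7 CPM after UPHD25 (log2 fold change 0.16, edgeR adjusted p = 0.947). It was low in both replicate 1 pools, and, unlike the 4 ER stress genes, it was not low in UPHD25 replicate 3. The gene for PERK, eif2ak3, was near the low end of what was tested, at 2.21 to 4.08 CPM over the 6 libraries (log2 fold change -0.17, edgeR adjusted p = 0.906). Levels of atf6 were 144.8, 134.7 and 120.04 CPM after DMSO and 137.2, 137.3 and 74.1 CPM after UPHD25 (log2 fold change -0.20, edgeR adjusted p = 0.843), again with the low value in UPHD25 replicate 3. None of the 3 sensors had an unadjusted p under 0.05.

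In the integrated stress response list, 14 of 15 genes were tested, 9 lay below 0 in log2 fold change and 5 above. The median was -0.06, and over all genes 47.3% lay below 0. The second atf4 copy, atf4b, was listed at 0 in all 6 libraries. ATF4 is the factor whose translation rises when PERK acts, and atf4a stood at 901, 1020 and 868 CPM after DMSO and at 914, 1103 and 606 CPM after UPHD25 (log2 fold change -0.09, edgeR adjusted p = 0.941). The gene for ATF3, a stress-induced transcription factor, gave 1987, 1332 and 1078 CPM after DMSO and 2723, 1929 and 817 CPM after UPHD25 (0.31, adjusted p = 0.858). Pairs 1 and 2 were thus higher and pair 3 lower after UPHD25, as for ddit3. The gene ppp1r15a, whose product GADD34 restores translation by reversing the PERK signal, gave 1785, 2172 and 930.2 CPM against 2070, 1906 and 509 CPM (-0.12, adjusted p = 0.960). The pseudokinase gene trib3, a CHOP target, gave 817, 611 and 664 CPM against 840, 872 and 365 CPM (-0.01, adjusted p = 0.995). The levels of atf4a, atf3, ppp1r15a and trib3 all had their lowest library in UPHD25 replicate 3. That was not so for chac1, a glutathione-degrading enzyme induced through ATF4, at 1272, 1404 and 864 CPM after DMSO and 1084, 827 and 906 CPM after UPHD25 (-0.33, adjusted p = 0.699).

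The member of that list whose groups parted upward was atf5a, a gene for the ATF4-related factor ATF5. Its level was 39.5, 39.7 and 42.9 CPM after DMSO and 50.5, 70.6 and 63.8 CPM after UPHD25. All 3 UPHD25 libraries lay above all 3 DMSO libraries, UPHD25 replicate 3 included, as was so for 10.4% of all genes. The log2 fold change was 0.60 (standard error 0.18, unadjusted p = 0.0111 and adjusted p = 0.242 from edgeR), which did not pass the threshold over all genes. Its copy atf5b had a log2 fold change of 0.35 (edgeR adjusted p = 0.662) with overlapping groups, and reads shared between the copies were not tested. The remaining members had log2 fold changes of 0.39 for ppp1r15b, 0.24 for sesn2, -0.03 for cebpg, -0.14 for asns, -0.15 for nupr1a, -0.24 for ddit4 and -0.45 for nupr1b, with edgeR adjusted p between 0.699 and 0.995 for the list's genes other than atf5a and atf5b.

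**Figure D2:**
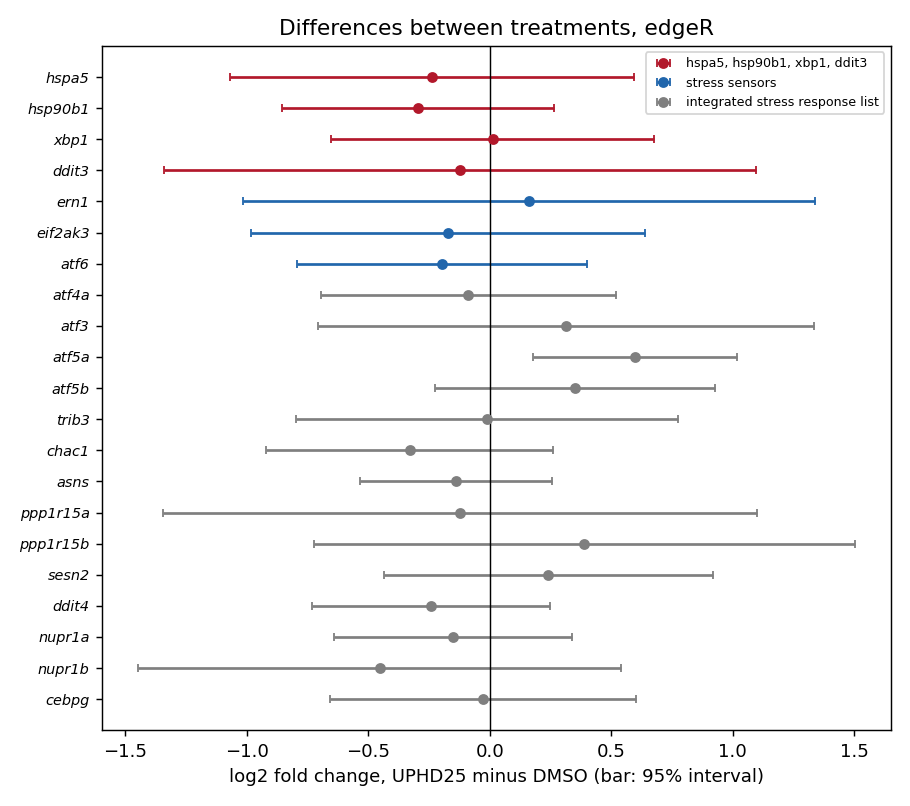
Log2 fold change of gent-AKI+UPHD25 relative to gent-AKI+DMSO (horizontal axis) for the 4 ER stress genes, the 3 sensors and the 14 tested genes of the integrated stress response list, from edgeR over 3 libraries per group. Bars are 95% intervals without correction for the number of genes, and all cross 0 except that of atf5a at 0.60.

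Of the chaperones and folding enzymes other than hspa5 and hsp90b1, 17 were tested. In log2 fold change 16 of them lay below 0, with a median of -0.21, against 47.3% and a median of 0.03 over all genes. UPHD25 replicate 3 was the lowest library for 11 of the 17 with TMM, or for 8 with library totals. The members described are canx, hyou1, pdia3 and pdia4, which took the most reads in the list, a choice that says nothing of levels per length. BiP's exchange factor hyou1 ran at 633.6, 748.6 and 544.4 CPM after DMSO and 667.8, 649.5 and 289.9 CPM after UPHD25 (-0.26, edgeR adjusted p = 0.839). With TMM it had the same highest and lowest library as hspa5. The disulfide isomerase gene pdia4 ran at 554.9, 568.6 and 525.4 CPM after DMSO and 577.4, 326.9 and 366.2 CPM after UPHD25 (-0.38, edgeR adjusted p = 0.639), low in both UPHD25 replicates 2 and 3. The log2 fold changes were -0.14 for canx, the lectin chaperone calnexin (edgeR adjusted p = 0.878), and -0.21 for pdia3, the isomerase that works with it (edgeR adjusted p = 0.821). One member, named after its values were seen, had groups that parted downward, as did 7.46% of all genes. This was p4hb, a disulfide isomerase that also serves collagen hydroxylation, at 17.1, 22.1 and 21.4 CPM after DMSO and 13.9, 15.3 and 10.5 CPM after UPHD25 (-0.61, standard error 0.22, unadjusted p = 0.0263, edgeR adjusted p = 0.309). The members manf, cnpy3 and creld2 were not tested for their low counts, and creld2 was listed at 0.

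In ER-associated degradation, which returns misfolded proteins to the cytosol, 14 members were tested. In log2 fold change 10 lay below 0, against 47.3% of all genes, and the median was -0.13. With TMM 10 of the 14 were lowest in UPHD25 replicate 3, or 7 with library totals. The gene herpud1, for a stress-induced part of the degradation complex, stood at 754.7, 787.8 and 499.5 CPM after DMSO and 701.3, 589.8 and 283.6 CPM after UPHD25 (-0.37, edgeR adjusted p = 0.764). With TMM its order of libraries was close to that of hspa5, with UPHD25 replicate 3 lowest and DMSO replicate 2 highest. The log2 fold changes were -0.13 for selenos, 0.03 for the ubiquitin ligase gene syvn1 and -0.29 for its partner sel1l (edgeR adjusted p = 0.841, 0.986 and 0.741). No member had an unadjusted p under 0.05.

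In translocation and export, which carries chains into the ER and packs them for the Golgi, 15 members were tested. In log2 fold change 10 lay below 0, against 47.3% of all genes. Of the 15, 14 were lowest in UPHD25 replicate 3 with TMM, or 9 with library totals. The channel gene sec61a1 (ENSDARG00000021669) gave 777.5, 1069 and 795 CPM after DMSO and 821, 992 and 439 CPM after UPHD25 (-0.23, edgeR adjusted p = 0.858). A second gene with the same symbol (ENSDARG00000005675) had a log2 fold change of the other sign, 0.20 (edgeR adjusted p = 0.919). How reads were shared between them was not tested. Log2 fold changes of ssr2 and ssr4, subunits of the translocon-associated complex, were -0.26 and -0.10, and that of the coat gene sec23b was 0.07 (edgeR adjusted p = 0.744, 0.910 and 0.949). The signal peptidase subunit gene spcs2, named after its values were seen, was lower in all 3 UPHD25 libraries than in all 3 DMSO libraries. Its log2 fold change was -0.33 (edgeR adjusted p = 0.472), and 7.46% of all genes parted downward in this way.

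**Figure D3:**
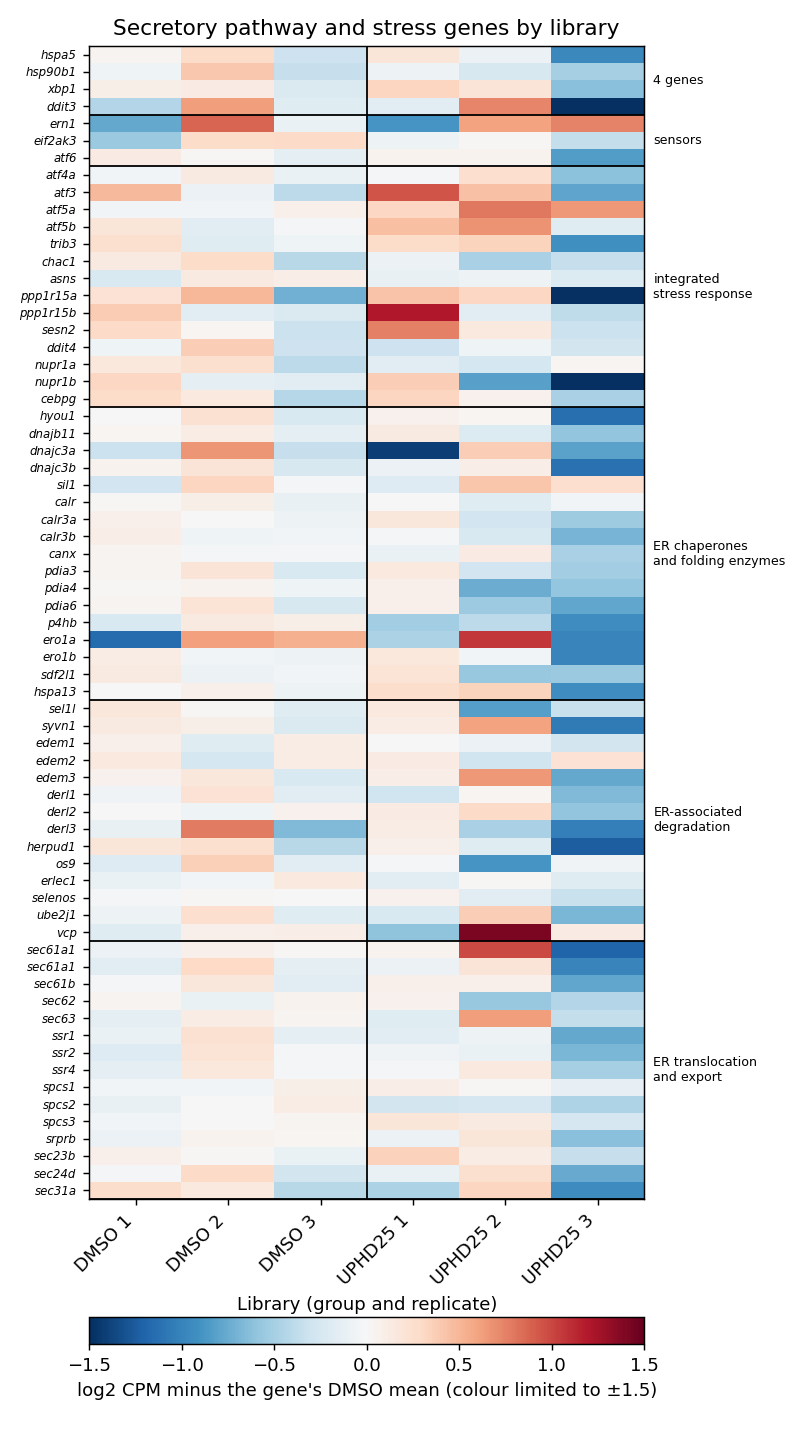
Log2 CPM of the 4 ER stress genes and the 63 tested genes of the 5 lists (rows) in each library (columns), relative to the gene's mean in gent-AKI+DMSO, with blue lower and red higher and the colour limited to ±1.5. The bluest column is UPHD25 replicate 3, the lowest library for 44 of the 63 listed genes with TMM, and atf5a is red in all 3 UPHD25 libraries.

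Markers of secretory tissues other than the tubule were set beside the 4 genes, whose levels in those tissues were not measured here. The summed level of 12 exocrine pancreas genes was 11519, 16411 and 10504 CPM after DMSO and 9566, 3334 and 4099 CPM after UPHD25, and the groups did not overlap. Of its 11 tested genes 11 lay below 0 in log2 fold change, 6 with an unadjusted p under 0.05 and 0 with an adjusted p under 0.05 in edgeR. Over all genes 47.3% lay below 0, and 12.5% had an unadjusted p under 0.05 in either direction. All 3 UPHD25 libraries lay below all 3 DMSO libraries for 7.46% of single genes. The listed genes mark the same tissue, so they are not independent of each other. The summed level of 10 liver genes was 11140, 15035 and 9772 CPM after DMSO and 11831, 6212 and 4965 CPM after UPHD25, and 10 of 10 lay below 0. Both lists were thus high in DMSO replicate 2, where hspa5 and hsp90b1 were highest with TMM, and low in UPHD25 replicates 2 and 3. With library totals hspa5 was instead highest in UPHD25 replicate 1, by a small margin over DMSO replicate 2. In UPHD25 replicate 2, where the pancreas sum was lowest, ddit3 was at its highest (1018 CPM) and xbp1 at its second highest (1063 CPM). There hspa5 lay inside the DMSO range (6484 CPM), and its lowest library was UPHD25 replicate 3, as for the liver sum. The part of these tissues in the levels of the ER stress genes was not tested.

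Other tissues varied as well. Of 12 skeletal muscle markers listed, 5 were matched to genes, with pvalb2 listed at 0. Their sum was 18753 to 20993 CPM after DMSO and 8801 to 15965 CPM after UPHD25, and the groups did not overlap. All 3 UPHD25 libraries lay below all 3 DMSO libraries for 7.46% of single genes. In log2 fold change 4 of 4 tested muscle genes lay below 0, against 47.3% of all genes. In edgeR 1 of them had an unadjusted p under 0.05 and 0 an adjusted p under 0.05. The 8 epidermis genes summed to 971 to 1137 CPM after DMSO and to 999, 848 and 2878 CPM after UPHD25, so the high value was that of UPHD25 replicate 3. The 7 matched proximal tubule genes summed to 238, 96.0 and 210.4 CPM after DMSO and to 213, 88.3 and 219 CPM after UPHD25, with both replicate 2 pools low. Those pools were the ones in which ddit3 was highest. The largest part of the sum in every library was cdh17, at 59.3 to 149 CPM, which the paper uses as a marker of the renal tubule. The list did not move as a whole in UPHD25 replicate 3. There pdzk1 and lrp2b were at their highest, while cubn and cdh17 were below their levels in DMSO replicate 3. Of 8 leukocyte markers listed, 4 were matched to genes. The neutrophil gene lyz was listed at 0 and coro1a had at most 1 count in a library, so the sum rested on ptprc and lcp1. The ER channel subunit gene sec61g was also listed at 0, and whether such zeros mean absent RNA was not tested. The leukocyte sum was 65.8 to 93.7 CPM after DMSO and 25.2 to 49.2 CPM after UPHD25. These groups did not overlap, and 7.46% of all genes parted downward in this way. How far any of these differences enters the 4 genes was not tested.

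**Figure D4:**
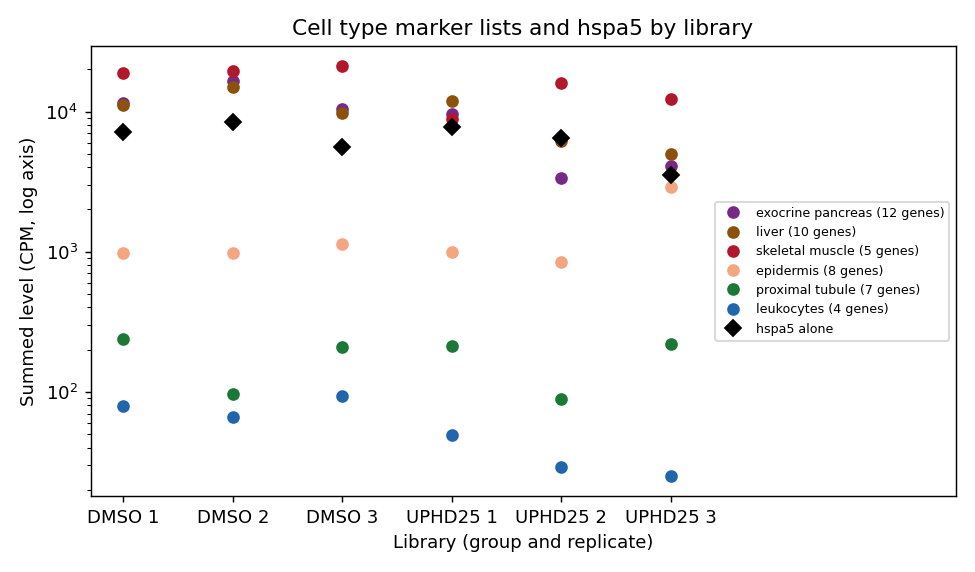
Summed level of marker genes for 6 tissues or cell types and the level of hspa5 (vertical axis, CPM on a log axis) in each of the 6 libraries (horizontal axis). Exocrine pancreas and liver genes are low in UPHD25 replicates 2 and 3, epidermis genes are high in UPHD25 replicate 3, and hspa5 is lowest there.

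For each of the 4 genes the tested genes most alike across libraries were found by Pearson's r of log2 CPM over the 6 libraries. With 6 points many genes reach high values, and r over 0.95 was reached by 151 of 17496 genes for hspa5, 27 for hsp90b1, 166 for xbp1 and 210 for ddit3. Among the 3 most alike to hspa5 were FAM120A, RPL10 and RPS6 (r of 0.995, 0.994 and 0.994). Among those for hsp90b1 were AP1M2 and an unnamed gene (ENSDARG00000097504), at 0.999 and 0.985. Among those for xbp1 were jag1b, OAF and ikbkg (0.996, 0.995 and 0.994), and among those for ddit3 were ube2d1b and RPS24 (0.995 and 0.994). Ribosomal protein genes appear for hspa5 and ddit3, and none of the genes named here is on the 5 lists. The points share library depth and tissue make-up, and the values are a description.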

How the data were processed

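RNA of dissected GFP-labelled pronephros, with RNA of other tissues in it, from 3 gent-AKI+DMSO and 3 gent-AKI+UPHD25 pools was analysed. The authors deposited raw counts per gene, made with a stranded kit, HISAT2 2.1.0 (danRer11) and featureCounts, per the submitters' processing notes. The strand option, annotation release and handling of multiply aligned reads are not given in the sources used here. Columns were assigned by the labels (0 left unassigned). A table of zebrafish names paired 29201 of 32520 identifiers with a symbol, and symbols were matched in any case.

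Groups were compared by edgeR 4.0.16 (R 4.3.3), with TMM, filterByExpr (minimum count 10, minimum total 15) and the two-sided quasi-likelihood test, the model holding group alone. Adjustment was by Benjamini-Hochberg over 17497 genes. Intervals (95%) used edgeR's residual and prior degrees of freedom. Log2 CPM used a prior count of 2. The common biological coefficient of variation was 0.314. The scripts were tested on simulated counts. The depth was 10781071 to 30750026 counts per library.

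Same-numbered libraries were read as pairs, since their deviations from group means correlated over genes at 0.49, 0.29 and 0.21. Libraries of unlike number were not compared in this way, and no label says that same-numbered pools were raised or sequenced together. The alternatives were library totals, DESeq2 size factors, DESeq2's Wald test (DESeq2 1.42.0), other filters, the replicate block and each library left out. Named were the 4 genes, all sensors and integrated stress response genes, the 4 genes with the highest mean CPM in each other list plus any past the threshold, and the 3 most alike genes, of which some are not reported here. The members and lists were chosen with earlier results of these data known.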

Additional observations from a re-analysis of the deposited data

How the results depend on the processing

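No alternative gave any of the 4 ER stress genes or any of the 63 listed genes an adjusted p under 0.05. Over 13 alternatives the adjusted p ranged from 0.604 to 0.996 for hspa5, from 0.551 to 0.993 for hsp90b1, from 0.676 to 0.999 for xbp1 and from 0.569 to 0.989 for ddit3.

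With one library left out in turn, the log2 fold change ranged from -0.49 to 0.029 for hspa5, from -0.46 to -0.07 for hsp90b1, from -0.18 to 0.25 for xbp1 and from -0.77 to 0.27 for ddit3. Signs turned for hspa5 without UPHD25 replicate 3, and for ddit3 without UPHD25 replicate 3 or DMSO replicate 2. For xbp1, at 0.01 over all libraries, the sign turned without DMSO replicate 3 (-0.094), UPHD25 replicate 1 (-0.178) or UPHD25 replicate 2 (-0.087). Its sign also turned with DESeq2 size factors (-0.0058), DESeq2's Wald test (-0.020), no filter on low counts (-0.013) and the replicate block (-0.036). The log2 fold change of xbp1 was -0.077 in DESeq2 with the replicate block, which was chosen after seeing the data. The cause was not tested. The replicate block changed no call, and in that fit 2722 genes had an unadjusted p under 0.05.

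Genes past an adjusted p of 0.05 numbered 0 in edgeR (2186 at an unadjusted p under 0.05), 0 to 1 with one library left out (1 without UPHD25 replicate 2), 636 in DESeq2's Wald test and 776 in DESeq2 with the replicate block. The count of listed genes below 0 was chosen after seeing the data. It ran from 38 to 55 of 63 across the alternatives other than leaving out UPHD25 replicate 3, which gave 32. Without UPHD25 replicate 1, 9 of the 63 had an unadjusted p under 0.05, beside 3011 of all 18011 genes in that fit, with a smallest adjusted p of 0.0966 in the lists. Over all libraries the counts were 2 of 63 and 2186 of 17497. Library totals moved the all-gene median from 0.03 under TMM to 0.15 in log2 fold change. The planned search of promoters for stress response elements was not run, since promoter sequences were not used here.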

Other observations

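Marker lists of further tissues were read in the same libraries. The 5 intestine genes summed to 8848, 8752 and 5391 CPM in gent-AKI+DMSO and to 11563, 2645 and 3149 CPM in gent-AKI+UPHD25, most of it from the apolipoprotein gene apoa1b. This sum was highest in UPHD25 replicate 1 and low in UPHD25 replicates 2 and 3, where the pancreas and liver sums were low too. The other tested genes of the list, vil1, cdx1b and apoa4b.1, were instead highest in UPHD25 replicate 3, at 132, 27.3 and 167 CPM. The sum therefore follows apoa1b and not the list as a whole. Of the 4 ER stress genes, xbp1 was highest in UPHD25 replicate 1, as the intestine sum was. It was second highest (1063 CPM) in UPHD25 replicate 2, where that sum was lowest. The 6 matched genes of the distal tubule and duct summed to 51.6 to 86.6 CPM after DMSO and to 49.8 to 140.3 CPM after UPHD25, with UPHD25 replicate 3 the highest. The 5 erythroid genes, with alas2 and gata1a at 0, summed to 137 to 228 CPM after DMSO and to 45.6 to 159 CPM after UPHD25. None of the genes on these 3 lists had an adjusted p under 0.05 in edgeR, and their part in the levels of the ER stress genes was not tested.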
